A study of Oryza sativa with 17 samples.

Results

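The genes described here were low in control grains of red rice at 15 days after flowering (DAF) and abundant 5 days later. A gene was taken when its FPKM was below 5 in both control libraries of the red rice variety Yuhongdao 5815 (RR) at 15 DAF and at least 20 in all 3 control libraries at 20 DAF. FPKM gives the sequenced fragments of a gene relative to its transcript length and to the size of the library. 47 genes of 32657 in the table met the rule, and an upper limit of 300 genes was never reached. The 47 genes were chosen on the RR control libraries, so their values in those libraries are given as a description without a test. The RR libraries under foliar Fe and the libraries of the black rice variety Nanheinuo (BR) took no part in the choice.

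Grains of both varieties were sequenced after foliar sprays at the end of booting and 7 d later. Control plants received deionized water and Fe plants received FeSO4·7H2O, and every spray also held nicotinamide and Tween 80. The study sprayed FeSO4·7H2O at 0.1% or 0.2% (w/v) and describes its gene network as built on the lower concentration, while the labels of the libraries say only Fe. BR was sampled at 10 DAF and RR at 15 and 20 DAF, with 3 libraries per group except the RR control at 15 DAF. For that control the 17 samples of the series include only replicates 2 and 3. Each biological replicate was a set of pails, and the p-values measure the spread between these replicates.

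In a filling rice grain the starchy endosperm makes storage proteins and starch. As filling ends the grain dries, the endosperm cells die, and the embryo and aleurone layer accumulate transcripts for desiccation tolerance. Tonoplast intrinsic proteins (TIPs) are aquaporins of the vacuolar membrane and carry water, and some carry small solutes. The study names grains as the material sequenced, describes no separation of tissues for it and does not say whether hulls were removed. A higher FPKM can therefore come from more transcript per cell or from a larger share of the cells that hold it. FPKM is relative to the library, so it can also rise when other abundant transcripts fall. These cannot be told apart from FPKM alone.

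Of the 47 genes, 42 carried an annotation ID and 5 were new genes of the authors' assembly. The RefSeq gene table listed 41 of the 42, all of them as protein-coding. It gave a short name for only 1, OsTIP1;2 (LOC4324303), a tonoplast aquaporin. The other 46 genes are therefore named by ID and no role is given for them. The 41 listed genes lay on 11 chromosomes, and none was the direct neighbour of another. The nearest pair, LOC4329527 and LOC4329516, stood 10 genes apart. Of the 82 genes directly beside a listed member, 38 were below FPKM 1 at both RR control stages and 7 reached a mean of 20 at 20 DAF.

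The Fe libraries at 15 DAF were not alike, and this touches every value of that group. Over the tested genes, Fe replicate 1 correlated with RR control replicates 2 and 3 of the same day at 0.969 and 0.945, and with Fe replicates 2 and 3 at 0.845 and 0.877. FPKM sums of the 17 libraries ranged from 547675 to 679747, and 20050 to 23671 genes were above 0. Read depth is unknown, so no counting interval is given.

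In RR control grains the median of the 47 genes was 2.20 and 3.61 FPKM in the libraries at 15 DAF, and 36.0, 26.7 and 29.5 at 20 DAF. Most of the genes were low rather than silent at 15 DAF, and only NewGene_5335 was at 0 in both libraries. Means at 20 DAF ran from 21.9 to 97.4 FPKM, and 33 of the 47 lay below 40. The median log2 difference between the days was 3.13 among the 47 genes, from 2.02 to 5.36, and 0.68 among all 19774 genes tested. These sizes follow from the rule. At 20 DAF, control replicate 1 was the highest library for 30 of the 47 genes.

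LOC4343443 had the highest mean at 20 DAF, with 1.17 and 1.07 FPKM in the controls at 15 DAF and 48.3, 80.7 and 163 at 20 DAF. OsTIP1;2 followed with 0.945 and 1.59 against 103, 79.1 and 58.6 FPKM. LOC4334517 measured 4.63 and 3.82 against 49.8, 49.7 and 98.0 FPKM. These 3 genes differed in which library was the highest at 20 DAF, replicate 3 for LOC4343443 and LOC4334517 and replicate 1 for OsTIP1;2. LOC107278746 measured 0.459 and 4.17 FPKM at 15 DAF and 83.9, 66.2 and 46.3 at 20 DAF, so its controls at 15 DAF already differed widely. LOC4339041 stood at 0.81 and 1.13 FPKM and then at 100, 22.0 and 46.2. Its replicate 1 at 20 DAF was far above the others, as it was for LOC4326466 (93.3, 38.7 and 36.5 FPKM) and LOC4338062 (78.3, 34.1 and 35.4 FPKM). LOC4347591 was more even, with 2.63 and 2.52 FPKM at 15 DAF and 53.9, 37.8 and 52.5 at 20 DAF.

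**Figure D1:**
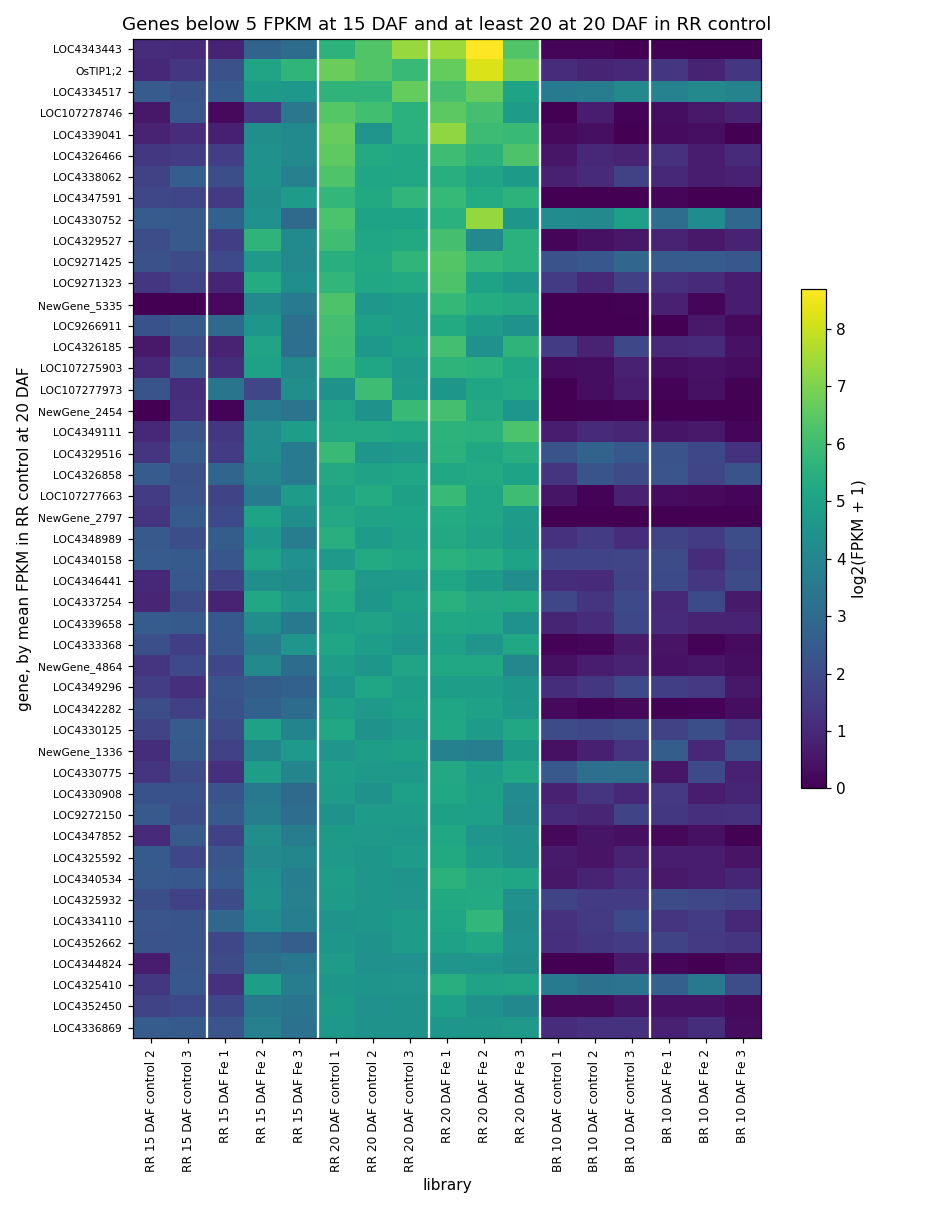
Level of each of the 47 genes (rows, ordered by mean FPKM in RR control grains at 20 DAF) in each of the 17 libraries (columns), as log2(FPKM + 1) by colour. The genes are low in the RR controls at 15 DAF, in Fe replicate 1 at 15 DAF and in BR for nearly every gene, intermediate in Fe replicates 2 and 3 at 15 DAF, and high in all 6 RR libraries at 20 DAF.

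Genes on either side of the limits differed little. Just inside the low limit were LOC4338062, LOC4336869 and LOC4339658, whose higher control value at 15 DAF was 4.995, 4.78 and 4.78 FPKM. Just outside were LOC4351627, LOC4336738 and LOC4331976 at 5.03, 5.06 and 5.10. At the high limit, LOC4344824, LOC4352450 and LOC107277973 had lowest values of 20.2, 20.3 and 20.6 FPKM at 20 DAF. The nearest genes left out there were LOC4341095, LOC4348984 and LOC4329876 at 19.9, 19.7 and 19.7. The number of genes also rested on single libraries. It was 125 without control replicate 2 at 15 DAF, 124 without replicate 3, and 59, 76 and 62 without replicate 1, 2 or 3 at 20 DAF. Limits of 2 and 40 FPKM left 2 genes, and a high limit of 10 gave 455. The opposite pattern, at least 20 FPKM at 15 DAF and below 5 at 20 DAF, was met by 40 genes.

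Under Fe at 20 DAF the 47 genes stood near the level of the controls of that day. Their median was 40.0, 34.7 and 27.3 FPKM in Fe replicates 1, 2 and 3. 36 of the 47 reached 20 FPKM in all 3 Fe libraries, 11 fell below 20 in at least 1, and none was below 20 in all 3. Replicate 1 was the highest Fe library for 31 genes. The mean under Fe was above the control mean for 36 genes, with a median ratio of 1.06 and a range from 0.632 for NewGene_1336 to 2.28 for LOC4343443. Because the controls chose the genes, this difference was not tested. The Fe and control libraries overlapped for 43 genes and lay wholly higher under Fe for 4 of the 47, where 5.15% of all genes tested did. Nothing is read from this count, since the controls were part of the rule.

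These 4 genes were LOC4349111, LOC4330775, LOC4340534 and LOC4325410. LOC4340534 measured 27.8, 23.2 and 21.6 FPKM in the controls and 46.8, 37.1 and 34.9 under Fe. LOC4325410 measured 23.3, 21.6 and 22.4 against 43.3, 31.2 and 33.1 FPKM. For both genes the lowest Fe library was above the highest control. LOC4343443 and OsTIP1;2 had larger ratios, 2.28 and 2.16, but in each the Fe libraries overlapped the controls and replicate 2 was far above the others. LOC4343443 stood at 171, 415 and 80.2 FPKM under Fe, and OsTIP1;2 at 100, 304 and 115. LOC4330752 had the same high replicate, with 46.2, 161 and 23.1 FPKM under Fe beside 75.2, 32.2 and 32.4 in the controls. NewGene_1336, with the lowest ratio, had 13.3, 12.3 and 25.5 FPKM under Fe and 22.0, 28.7 and 29.9 in the controls.

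**Figure D2:**
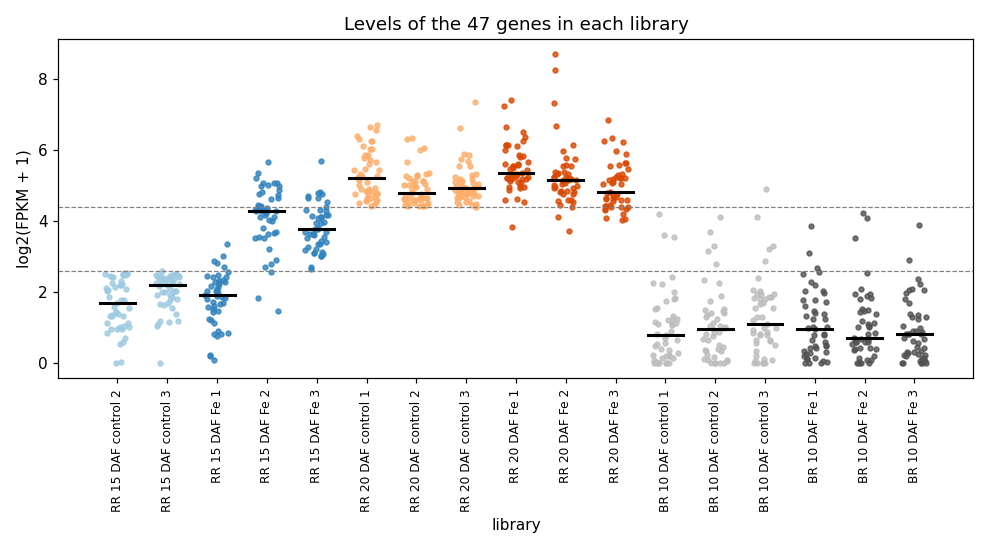
Level of the 47 genes as log2(FPKM + 1) in each of the 17 libraries. Each point is a gene, the black bar is the median of the 47 and the dashed lines mark FPKM of 5 and 20. The medians of Fe replicates 2 and 3 at 15 DAF, 18.5 and 12.6 FPKM, lie between the limits, while that of replicate 1 is 2.80.

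At 15 DAF the 3 Fe libraries gave different pictures. Their medians over the 47 genes were 2.80, 18.5 and 12.6 FPKM. In replicate 1, 42 genes were below 5 FPKM and none reached 20. In replicate 2 only 3 were below 5 and 18 reached 20, and in replicate 3 none was below 5 and 9 reached 20. No gene of the whole table met the same limits of 5 and 20 FPKM when they were set in the Fe libraries of the 2 days. Replicate 1 lay between the controls of the day for 20 genes, below both for 14 and above both for 13. Replicates 2 and 3 were both above both controls for 45 of the 47, where 49.9% of all genes were, and nothing is read from this count because the rule took genes that were low in these controls. The median log2 difference between the Fe and control means of the day was 1.46 among the 47 genes and 0.29 among all genes. On the log2 scale, replicate 1 covered a median of -1.56% of the distance between the control means of 15 and 20 DAF, replicate 2 covered 74.0% and replicate 3 covered 62.6%. Both ends of this scale are the controls that chose the genes, so these percentages are only a description. Replicate 2 was above replicate 3 for 35 genes and below it for 12.

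OsTIP1;2 had the highest mean of the 47 in Fe grains at 15 DAF, 29.0 ± 23.9 FPKM (SD, n = 3), from 3.43, 32.6 and 50.9 FPKM in replicates 1, 2 and 3. LOC4329527 followed with 2.05, 50.0 and 16.5, and LOC4337254 with 0.801, 36.4 and 23.9 FPKM. In each of these genes replicate 1 was the lowest of the Fe libraries, and the order of replicates 2 and 3 differed. For OsTIP1;2 replicate 1 was above both controls of the day. 23 genes reached 20 FPKM in replicate 2 or 3, but only 4 did so in both: OsTIP1;2, LOC4337254, LOC4334517 (25.9 and 24.1 FPKM) and LOC4340158 (31.6 and 20.0 FPKM). At the other end, 6 genes stayed below 10 FPKM in all 3 Fe libraries at 15 DAF. They were LOC4343443, LOC107278746, LOC4342282, LOC4352662, LOC4344824 and LOC4349296, a group put together after the values were seen.

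**Figure D3:**
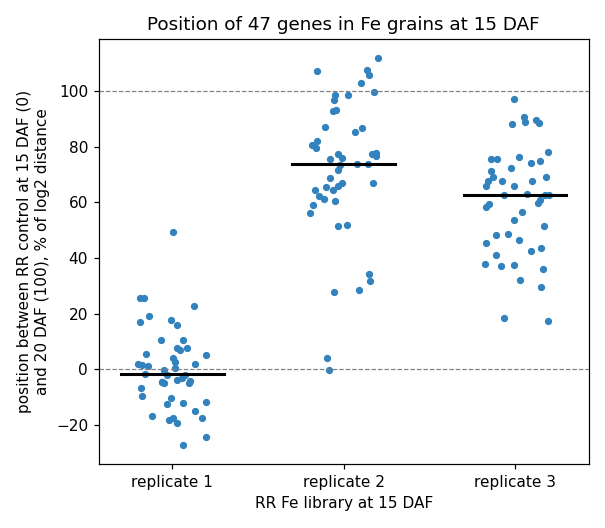
Position of each of the 47 genes (points) in the 3 RR Fe libraries at 15 DAF, as a percent of the log2 distance from the RR control mean at 15 DAF (0) to that at 20 DAF (100). Black bars are medians, -1.56% for replicate 1, 74.0% for replicate 2 and 62.6% for replicate 3. Both ends of the scale are the controls that chose the genes.

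The change from 15 to 20 DAF under Fe was tested with limma on log2(FPKM + 1), since the Fe libraries took no part in the choice. All 47 genes were higher at 20 DAF, by 0.63 to 5.26 on the log2 scale, with a median of 1.80 beside 0.38 over all genes tested. The study counts a gene as differentially expressed from a 1.5-fold change with adjusted p under 0.01. By these limits 4 of the 47 rose, where 0.44% of all genes tested did. None fell, where 0.162% of all genes did. With adjusted p under 0.05, 30 of the 47 rose and none fell, beside 6.93% and 2.27% of all genes. For 37 genes the lowest Fe library at 20 DAF was above the highest at 15 DAF, beside 25.3% of all genes, and for none was it the reverse, beside 9.05%. After centring each library on its median, the median change was 1.42 among the 47 genes and -0.01 among all genes.

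LOC4343443 rose most under Fe, from 0.772, 5.87 and 7.40 FPKM at 15 DAF to 171, 415 and 80.2 at 20 DAF. On the log2 scale it rose by 5.26 ± 0.634 (SE), with an adjusted p of 0.00114 in limma. The libraries of the 2 days were far apart, and even the highest value at 15 DAF was below the lowest at 20 DAF. LOC107278746 went from 0.166, 1.73 and 9.88 FPKM to 89.7, 69.5 and 27.3, or 4.12 ± 0.677 (SE) in log2, at an adjusted p of 0.00696 in limma. LOC4352662 went from 2.60, 6.45 and 5.26 to 30.8, 35.4 and 20.2 FPKM (2.40 ± 0.343 in log2, limma adjusted p = 0.00297). LOC4342282 went from 3.49, 5.53 and 7.51 to 33.4, 30.3 and 24.0 FPKM (2.25 ± 0.308 in log2, limma adjusted p = 0.00287). None of these 4 genes had overlapping libraries, and all of them belong to the 6 that stayed below 10 FPKM in every Fe library at 15 DAF.

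These calls rested on few libraries. Without Fe replicate 3 at 15 DAF or without Fe replicate 1 at 20 DAF, no gene of the whole table was called as rising, the 47 included, while the median change of the 47 was 2.09 and 1.70 and that of LOC4343443 was 5.69 and 5.30. 2 of the 47 were called without Fe replicate 2 at 15 DAF (0.0254% of all genes) and 2 without Fe replicate 2 at 20 DAF (0.0716%). Without Fe replicate 3 at 20 DAF 20 were called, beside 4.84% of all genes. Without Fe replicates 2 and 3 at 15 DAF together, 46 were called, beside 20.5% of all genes, and the median change was 3.05, beside 0.72 over all genes, but replicate 1 was then assumed to vary like the other groups. The fit also took its spread partly from the control libraries that chose the genes, and with only the libraries compared 1 of the 47 was called, beside 0.0289% of all genes. Of the 6 fits with a library removed, LOC4343443 passed in 4, LOC4342282 and LOC4352662 in 3, and LOC107278746 in 2.

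NewGene_1336 had the smallest change, from 2.29, 14.9 and 25.1 FPKM to 13.3, 12.3 and 25.5, and its libraries overlapped (log2 change 0.63, adjusted p = 0.560 from limma). LOC4329527 went from 2.05, 50.0 and 16.5 to 69.1, 16.3 and 45.6 FPKM and did not pass either (1.46 ± 0.685 in log2, limma adjusted p = 0.166). In both genes an Fe library at 15 DAF was higher than the lowest at 20 DAF.

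OsTIP1;2 did not overlap between the days under Fe, with 3.43, 32.6 and 50.9 FPKM at 15 DAF and 100, 304 and 115 at 20 DAF. Its log2 change of 2.95 ± 0.630 (SE, limma adjusted p = 0.0146) passed the limit of 0.05 and not that of 0.01. Among the 29 rice aquaporins with a short name, 21 were below 5 FPKM in both RR controls at 15 DAF, and OsTIP1;2 was the only one of these to reach 20 in any control at 20 DAF. It ranked 10th of the 29 by control mean at 15 DAF and 5th at 20 DAF. The same controls chose OsTIP1;2, so its place among the aquaporins is only a description. 16 of the 29 were tested, and under Fe none rose or fell between the days at 0.01. At 0.05, 2 rose, OsTIP1;2 and OsPIP1;2, an aquaporin of the plasma membrane family (log2 change 2.43, adjusted p = 0.0106 from limma). At that limit 6.93% of all genes rose. The median change of the 16 was -0.24, beside 0.38 over all genes. The seed aquaporin OsTIP3;1 was the most abundant of the family, with means of 1585 FPKM in the control at 15 DAF and 1535 at 20 DAF. OsTIP1;1, the other gene of the TIP1 group, had 267 and 49.3 FPKM in the controls at 15 DAF and 117, 296 and 363 at 20 DAF, and these overlapped.

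**Figure D4:**
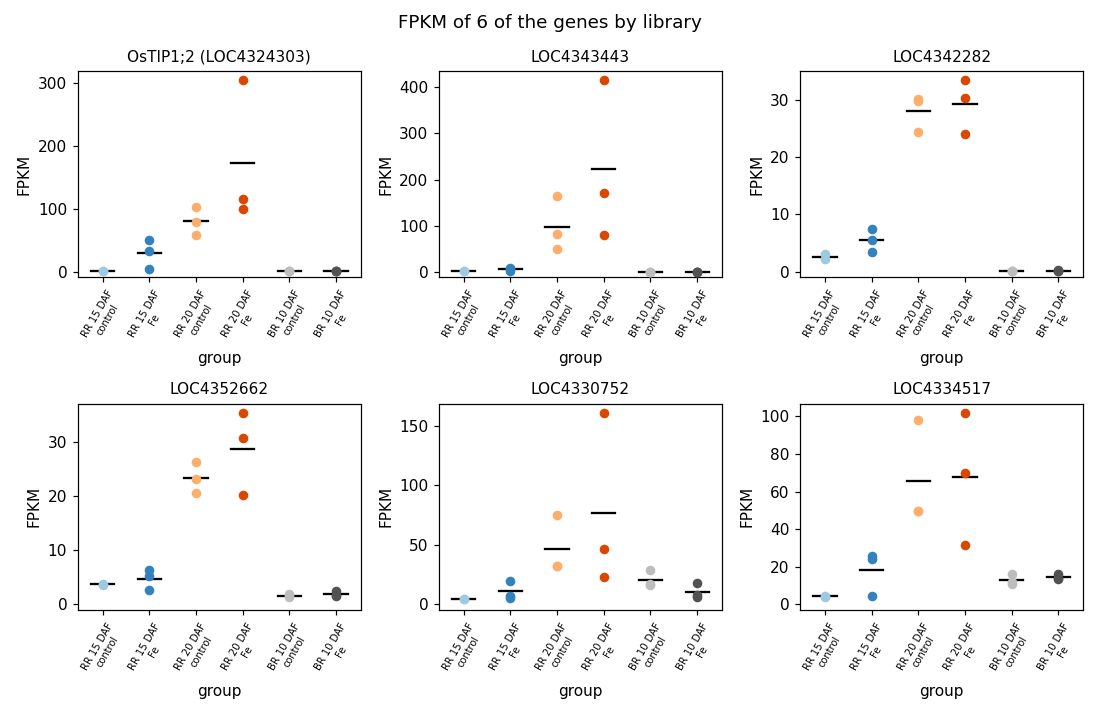
FPKM of OsTIP1;2, LOC4343443, LOC4342282, LOC4352662, LOC4330752 and LOC4334517 in every library, by group. Points are libraries and black bars are group means. The first 4 genes are near the bottom in BR, while LOC4330752 reaches 29.0 and LOC4334517 16.3 FPKM there, and Fe replicate 2 at 20 DAF stands high for OsTIP1;2, LOC4343443 and LOC4330752.

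In BR grains at 10 DAF the genes were low under both treatments. Their median was 0.721, 0.930 and 1.13 FPKM in the control libraries and 0.938, 0.632 and 0.747 under Fe. 19 of the 47 were below 1 FPKM in all 6 libraries, and NewGene_2797 was listed at 0 in all of them. A further 22 stayed below 5. The BR mean was below the RR control mean at 15 DAF for 39 genes. The share over all genes was not taken for this count, so nothing is read from it. For 46 genes the highest BR library was below the lowest of the 6 RR libraries at 20 DAF, as it was for 56.4% of all genes. 3 of these RR libraries are the controls that chose the genes. The exception was LOC4330752.

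6 genes reached 5 FPKM in BR, and 2 of these did so in every library. LOC4330752 measured 17.2, 16.2 and 29.0 FPKM in the BR controls and 7.60, 17.6 and 6.43 under Fe, above its controls of 4.68 and 4.36 in RR at 15 DAF. LOC4334517 measured 10.7, 12.02 and 16.3 FPKM in the controls and 13.7, 16.02 and 13.9 under Fe, also above its RR controls at 15 DAF. For both genes the RR controls at 15 DAF had the lowest mean of the 6 groups. LOC4325410 reached 11.3, 8.78 and 8.90 FPKM in the BR controls and 5.41, 10.49 and 3.16 under Fe. LOC4330775, LOC9271425 and LOC4329516 had BR control means of 6.89, 4.73 and 4.66 FPKM.

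Under Fe in BR none of the 47 genes rose and none fell at the 0.01 limit in limma, where 0.334% of all genes rose and 0.379% fell. Only 26 of the 47 reached FPKM 1 in 2 or more BR libraries, and 19 were below 1 in all 6. Genes outside the 26 were tested only through their RR levels, and so near 0 a call could hardly be made. Nothing is read from the absence of calls. At an unadjusted p below 0.05, 1 of the 47 was higher and 3 were lower, beside 6.66% and 6.17% of all genes. The median log2 change was -0.05 among the 47 genes and 0.01 among all genes. The BR libraries did not overlap for 3 genes that were higher under Fe and 3 that were lower, beside 8.29% and 6.11% of all genes. LOC4330775, a gene for which the study designed qPCR primers, had the smallest adjusted p, with 4.34, 7.99 and 8.34 FPKM in the controls and 0.432, 2.81 and 0.747 under Fe. Its Fe libraries were all below its controls. The difference in log2 was -1.85 ± 0.385 (SE, limma adjusted p = 0.0157), which passes 0.05 only. At that limit 1.05% of all genes fell, and none of the 47 rose, where 0.915% of all genes did. Leaving out 1 library at a time moved its adjusted p from 0.000631, without Fe replicate 2, to 0.153, without Fe replicate 1 (limma). It did not pass 0.05 with a pseudocount of 0.1, without the filter, with only the libraries compared or without the variance factor. Without that factor the smallest adjusted p of the 47 genes was 0.387 in limma. In RR the same gene stood at 1.32, 27.4 and 14.4 FPKM under Fe at 15 DAF and at 37.0, 28.0 and 36.5 at 20 DAF. OsTIP1;2 was at 1.13, 0.846 and 0.962 FPKM in the BR controls and at 1.62, 0.775 and 1.61 under Fe (log2 change 0.22, adjusted p = 0.941 from limma).

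The Fe libraries of RR at 20 DAF and BR at 10 DAF were also compared, although variety and day cannot be told apart in these groups. All 47 genes were higher in RR at the 0.01 limit in limma, where 57.5% of all genes were, and the libraries of the 47 did not overlap, beside 63.8% of all genes. The rule asked for at least 20 FPKM in the RR controls at 20 DAF, and the Fe libraries of that day stood near them. High levels in RR were thus largely set by the choice, and nothing is read from the counts of this comparison. The median log2 difference was 4.26, from 2.00 to 7.48, and that of all genes was 1.08. Centred on library medians, 43 of the 47 passed, beside 23.7% of all genes, with a median of 3.01, and the median of all genes was -0.17. LOC4343443 had the largest difference, 7.48 (standard error 0.443, adjusted p = 4.04e-10 from limma), being listed at 0.026, 0 and 0 FPKM in the BR Fe libraries. OsTIP1;2 differed by 6.06 (adjusted p = 3.34e-09 from limma). The smallest differences were those of LOC4334517 and LOC4330752, 2.00 and 2.43 (adjusted p = 0.000124 and 0.000387 from limma). Both lost their call after centring, with values of 0.75 and 1.18. This comparison and that of the days share the Fe libraries at 20 DAF.

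Marker transcripts of the grain's tissues were read in the same libraries. 12 endosperm storage genes, mainly glutelins, prolamins and globulins, held 20.2% and 26.9% of the FPKM sum in the RR controls at 15 DAF and 0.876% to 3.45% in the 6 RR libraries at 20 DAF. In the Fe libraries at 15 DAF they held 23.0% in replicate 1, 6.85% in replicate 2 and 7.25% in replicate 3. The library in which the 47 genes were low was therefore also the one with the high storage share. In BR the share was 35.5% to 41.1%. Under Fe, 8 of the 12 were lower at 20 than at 15 DAF at the 0.05 limit in limma, and 1 of them passed 0.01. Of all genes, 2.27% were lower at 0.05 and 0.162% at 0.01. The median of the 12 was -3.07 in log2, beside 0.38 over all genes tested. Of 10 starch synthesis genes, 4 fell at 0.05 and none at 0.01 (median -1.82).

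Of 11 embryo and aleurone genes, none passed at either limit (median 0.65). Their summed level was 7050 to 7149 FPKM in the RR controls at 15 DAF, and 6634, 8378 and 18654 in Fe replicates 1, 2 and 3 of that day. It was 11682 to 18245 at 20 DAF and 266 to 2344 in BR. Unlike in the storage share, Fe replicate 2 at 15 DAF stood nearer to replicate 1 than to replicate 3. Of 17 small heat shock protein genes tested, which encode chaperones, 3 rose at 0.05 and none at 0.01 (median 1.33). At 0.05, 6.93% of all genes rose. The 21 genes of that list summed to 1670 to 1920 FPKM in the RR controls at 15 DAF, and to 2272, 4479 and 5325 in Fe replicates 1, 2 and 3 of that day. They summed to 7470 to 20475 at 20 DAF and 75.9 to 469 in BR. The 14 photosynthesis genes, markers of green outer layers, summed to at most 581 FPKM in any RR library at 20 DAF, and none passed under Fe. These lists were made from short names, and 46 of the 47 genes have none, so those 46 could not enter a list. That the lists hold none of the 47 therefore says nothing about what these genes are. The part of a changing share of tissues in the values of the 47 genes was not tested.

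**Figure D5:**
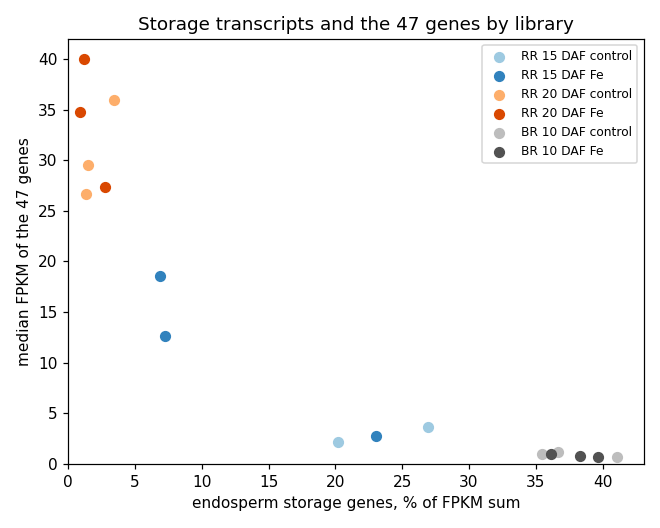
Median FPKM of the 47 genes against the share of the FPKM sum held by 12 endosperm storage genes, in percent, for each library (points, coloured by group). RR Fe replicate 1 at 15 DAF lies with the RR controls of that day at 23.0%, and replicates 2 and 3 lie between those and the libraries of 20 DAF, at 6.85% and 7.25%.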

How the data were processed

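RNA of grains was sequenced by the authors, aligned to the rice genome (IRGSP-1.0) by HISAT2 and assembled with StringTie. The deposited values are FPKM per gene and library, made by the authors, and the versions of these tools are not given in the sources used here. Because no counts were given, log2(FPKM + 1) was analysed with limma 3.58.1 in R 4.3.3. Genes that reached FPKM 1 in 2 or more libraries (19774) were fitted with 6 group means over 17 libraries and a variance factor per group (arrayWeights, eBayes with trend). P-values are two-sided and Benjamini-Hochberg adjusted over these genes. All 47 members passed the filter, which the rule itself ensures. The script was tested on simulated data.

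The study's own test of differential expression needs counts and could not be used. Members and gene lists were chosen with earlier results of these data known, and the lists were made from short names (27491 of 28737 annotation IDs were found in the RefSeq table of another rice assembly, so no coordinates are given). Genes named are those highest in each group, those called, list members and those at the limits of the rule. The further genes named (the 4 above the controls under Fe at 20 DAF, the 6 low at 15 DAF, those with the smallest change and OsPIP1;2, OsTIP3;1 and OsTIP1;1) were chosen after their values were seen. Alternatives were other pseudocounts, filters, scalings, thresholds, rules and designs, and each library left out in turn.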

Additional observations from a re-analysis of the deposited data

How the results depend on the processing

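The medians of both RR comparisons kept their direction in every alternative, and the number of calls between 15 and 20 DAF did not. Between 15 and 20 DAF under Fe, the 4 rising members (0.44% of all genes) became 2 with a pseudocount of 0.1 (0.233%), 1 with only the libraries compared (0.0289%), 24 without the variance factor (7.19%), 8 with centring (0.855%), 7 with quantile normalization (0.925%), 30 at an adjusted p below 0.05 (6.93%), 1 of 2 under the stricter rule (median log2 change 4.11) and 0 to 20 with 1 library left out (0% to 4.84%). Without Fe replicates 2 and 3 at 15 DAF, a fit added after the data were seen, 46 rose (median 3.05). With 1 library left out the median lay between 1.18 and 2.29, and without Fe replicate 1 at 15 DAF 1 member turned lower. In BR, 1 member fell at 0.05, beside 1.05% of all genes. None fell at 0.05 with a pseudocount of 0.1, no filter, only the libraries compared or no variance factor. With 1 library left out, 0 to 1 fell at 0.01 and 0 to 2 at 0.05. Both highest counts came without Fe replicate 2, where 1 member also rose at 0.05, beside 3.83% of all genes. In that fit 1.57% of all genes rose at 0.01, beside 0.334% in the main fit. The share of all genes that fell was not taken for each fit, so nothing is read from these falling counts. The BR median lay between -0.14 and 0.00 with 1 library left out. It was -0.20 with only the libraries compared, where 26 members were tested. Between RR and BR under Fe, 2 of 2 passed under the stricter rule (median 6.77), and the median was 5.49 with a pseudocount of 0.1, 3.01 with centring and 3.16 with quantile normalization. With quantile normalization LOC4334517 and LOC4330752 lost their call (0.72 and 1.11). The cause was not tested.

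Residuals of libraries with the same replicate number correlated at -0.357 to 0.0572 between the groups compared. Libraries with different numbers were not set beside them, so these values do not decide whether the numbers pair the libraries. With the replicate number as a block, 3 members rose under Fe instead of 4, beside 0.086% of all genes instead of 0.44%. LOC107278746 lost its call, with an adjusted p of 0.0107 from limma.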
